A study of Mus musculus with 15 samples.

Results

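A group of 8 genes that each span most of a megabase or more were followed across untreated and berry-treated 4T1 mammary carcinoma cells. They were Wwox, Fhit, Immp2l, Macrod2, Exoc4, Auts2, Magi2 and Naaladl2, taken by symbol from the 40402 rows of the count table as very long genes that lie at, or have counterparts at, common fragile sites. All 8 were among the 17594 genes that reached 1 CPM (counts scaled to a library of 1e6) in at least 1 library. The group was chosen by the level of Wwox, which was above that of untreated cells in all 4 treatments, so the values of Wwox against untreated cells are a description and were not tested. The question was whether the other 7 genes moved with it.

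The cells are the 4T1 line, a wild-type mouse mammary tumour line kept in culture, and all conditions came from this line. They were left untreated, or were treated 24 h after seeding with an extract of blackberry (BLA) or of blueberry (BLU), or with gold nanoparticles made with the blackberry (BLA-A) or the blueberry (BLU-A) extract. How long the treatment lasted before harvest is not given in the sources used here. Each condition has 3 columns with their own library names, and the paper states 3 biological replicates where it gives no other number. The supplement of the paper lists the reads as subsets, and the 3 columns differed by less than the sampling noise. They were taken as read subsets of 1 sequenced library, averaged and counted as 1 library. Each treatment was therefore compared with untreated cells without a replicate check, and the intervals given for single values cover counting error only. Fewer cells and less RNA per cell cannot be told apart in such bulk samples.

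Common fragile sites are stretches of chromosome that break or form gaps on metaphase chromosomes when DNA replication is slowed. Many of them lie inside very long genes, where transcription takes hours and replication origins are sparse. WWOX and FHIT are the human genes at the most studied of these sites, and both are often deleted in tumours and are described as tumour suppressors. Because the authors counted reads over whole genes, introns included, a count for such a gene is a sum of unspliced and spliced RNA, and the share of each was not measured.

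The genes span 725 kb (Exoc4) to 1998 kb (Macrod2), against a median of 27.2 kb over the 16308 tested genes with an annotated span. On GRCm39, Wwox occupies chromosome 8 from 115166192 to 116079448, and Immp2l chromosome 12 from 41074089 to 42002371. Exoc4 lies on chromosome 6 from 33226020 to 33950914, and Macrod2 on chromosome 2 from 140237229 to 142234886. Fhit lies on chromosome 14 from 11307738 to 12919681, and Naaladl2 on chromosome 3 from 23852266 to 25198425. Magi2 and Auts2 share chromosome 5, from 19431741 to 20909790 and from 131466171 to 132572183. The canonical transcript makes up between 0.0684% of the span (Fhit) and 0.693% (Naaladl2), and the longest intron runs from 178 kb in Exoc4 to 639 kb in Wwox. Wwox had the highest GC content of the 8 spans, 45.8%, and Naaladl2 the lowest, 36.8%. The median was 39.7% over the 228 tested genes of 500 kb and over. The longest unbroken run of alternating A and T, a kind of sequence known from fragile sites, was 46 to 57 bases in the 8 genes and had a median of 56 bases in those 228 genes.

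RefSeq promoter windows on build GRCm38.p6 were found for 5 of the 8 genes (Immp2l, Exoc4, Macrod2, Magi2 and Fhit). The 250 bases before the start are shown for Immp2l and Exoc4, the 2 genes that lay above untreated cells with Wwox in all 4 treatments, to let their starts be compared. They are printed 5′ to 3′ on the plus strand, at chr12:41023840-41024089 and chr6:33248878-33249127, with every CG pair in capitals.
Immp2l: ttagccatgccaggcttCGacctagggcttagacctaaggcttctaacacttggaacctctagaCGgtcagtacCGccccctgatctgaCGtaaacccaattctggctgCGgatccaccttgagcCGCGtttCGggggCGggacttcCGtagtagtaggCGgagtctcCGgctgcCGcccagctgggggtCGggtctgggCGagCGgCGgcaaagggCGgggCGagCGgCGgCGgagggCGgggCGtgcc
Exoc4: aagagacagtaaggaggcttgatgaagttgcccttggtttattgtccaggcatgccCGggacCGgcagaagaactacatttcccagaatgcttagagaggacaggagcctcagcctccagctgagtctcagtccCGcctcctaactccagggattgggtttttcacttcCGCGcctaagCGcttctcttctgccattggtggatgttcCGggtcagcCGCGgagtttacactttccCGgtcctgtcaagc
The Immp2l window held 24 CG pairs and 66% GC, and the Exoc4 window 10 pairs and 54.8% GC. The median over the 32851 windows was 6 pairs and 52.4% GC. Both strands were searched for 4 short motifs. The core of the antioxidant response element, TGACNNNGC, was in neither window and in 10.2% of all windows. The core of the dioxin response element, GCGTG, was found once in the Immp2l window, not in that of Exoc4, and in 28.2% of all windows. The E-box, CACGTG, was in neither window and in 6.02% of all, and it can overlap the preceding motif. The TATA box, TATAAA, was in neither window and in 12.4% of all. No match says only that these letters are not in this window.

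Wwox, a WW domain oxidoreductase, was the gene of the 8 with the largest increase. It was at 107 CPM without treatment, and at 361 CPM with BLA, 284 with BLU, 251 with BLA-A and 237 with BLU-A. The 4 treated libraries all lay above the untreated one, with log2 fold changes of 1.75, 1.40, 1.22 and 1.14. The widest 95% counting interval among these ran from 1.16 to 1.29, with BLA-A. Of the 17594 genes tested, 57 (0.324%) passed a log2 fold change of 1 upward in all 4 treatments. Wwox, chosen for its rise, was the only such gene among the 228 of 500 kb and over, which is a description.

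Immp2l and Exoc4 lay above untreated cells in all 4 treatments, as 19.4% of all tested genes did. Immp2l, a subunit of the peptidase of the mitochondrial inner membrane, was at 46.8 CPM without treatment and at 114 (BLA), 103 (BLU), 59.9 (BLA-A) and 85.5 CPM (BLU-A). Its log2 fold changes were 1.27, 1.13, 0.35 and 0.86, so it passed 1 with both extracts and with neither nanoparticle. Exoc4, a subunit of the exocyst that tethers secretory vesicles to the plasma membrane, was at 129 CPM without treatment and at 239, 213, 143 and 188 CPM in the same order. Its log2 fold changes were 0.89, 0.73, 0.15 and 0.55, and none passed 1. With scaling by total counts alone, its BLA-A value was -0.04. In both genes, as in Wwox, BLA was the highest library and BLU the next, but BLA-A was the lowest treated library in Immp2l and Exoc4 and BLU-A in Wwox.

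Macrod2, an enzyme that removes mono-ADP-ribose from proteins, stayed close to its untreated level. It was at 54.5 CPM without treatment and at 51.3 (BLA), 68.5 (BLU), 61.0 (BLA-A) and 55.3 CPM (BLU-A). Its log2 fold changes were -0.09, 0.33, 0.16 and 0.02, and the counting intervals of BLA and BLU-A included 0. The BLA-A value was -0.03 with scaling by total counts, and the BLU-A value was -0.002 with DESeq2 size factors.

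Naaladl2, a member of the glutamate carboxypeptidase family whose activity is not established, went the other way, from a level per length near that of Wwox in untreated cells. It was at 164 CPM without treatment and at 77.8 (BLA), 98.5 (BLU), 102 (BLA-A) and 129 CPM (BLU-A). All 4 treated libraries lay below the untreated one, as they did for 19.3% of all tested genes, with log2 fold changes of -1.07, -0.73, -0.68 and -0.35. Thus the treatment with the highest Wwox, BLA, had the lowest Naaladl2.

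Fhit, Magi2 and Auts2 were read at much lower levels. Fhit, which hydrolyses diadenosine triphosphate, was at 17.5 CPM without treatment and at 8.63 (BLA), 15.1 (BLU), 3.11 (BLA-A) and 15.6 CPM (BLU-A). Its log2 fold changes were -0.98, -0.21, -2.32 and -0.16, and the counting interval of BLU-A, from -0.35 to 0.03, included 0. Its BLA value lay at the threshold and was -1.01 with scaling by total counts. Magi2, a scaffold protein of cell junctions, was at 12.5 CPM without treatment and at 7.95, 21.0, 2.65 and 6.87 CPM, with log2 fold changes of -0.62, 0.73, -2.04 and -0.81. It was thus higher than untreated with BLU and lower in the other 3 libraries. Auts2, a nuclear protein of a Polycomb complex, was at 10.7 CPM without treatment and at 2.67, 3.19, 0.489 and 6.10 CPM. Its log2 fold changes were -1.82, -1.60, -3.50 and -0.76, and its 11.3 counts with BLA-A (a mean of columns with 10 to 13) leave the BLA-A interval at -4.36 to -2.65.

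**Figure D1:**
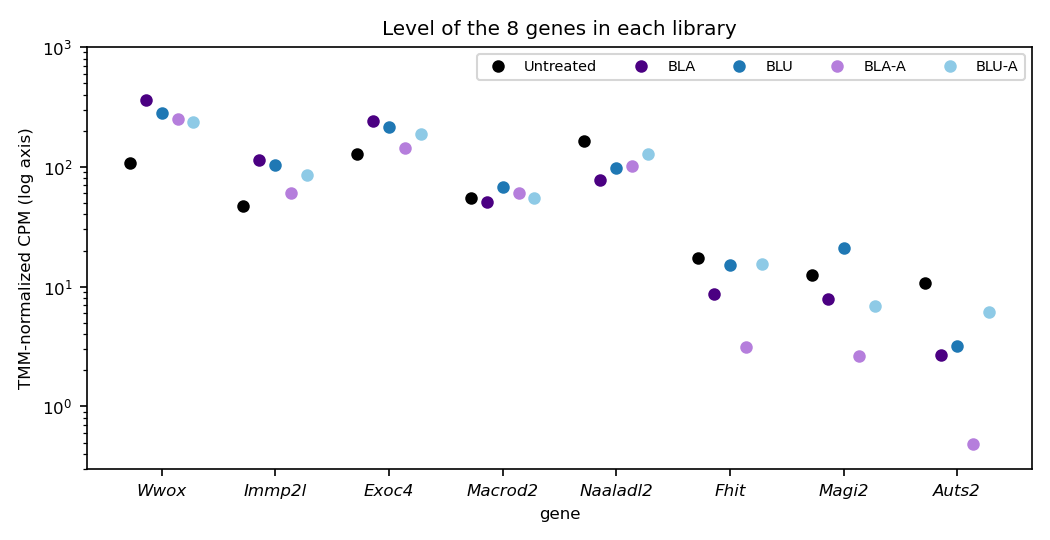
TMM-normalized CPM (log axis) of the 8 genes, with 1 point per library and colours for the 5 conditions. Wwox, Immp2l and Exoc4 have their untreated point lowest, and Naaladl2, Fhit and Auts2 have it highest. BLA-A is the lowest library for Fhit (3.11 CPM), Magi2 (2.65 CPM) and Auts2 (0.489 CPM).

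**Figure D2:**
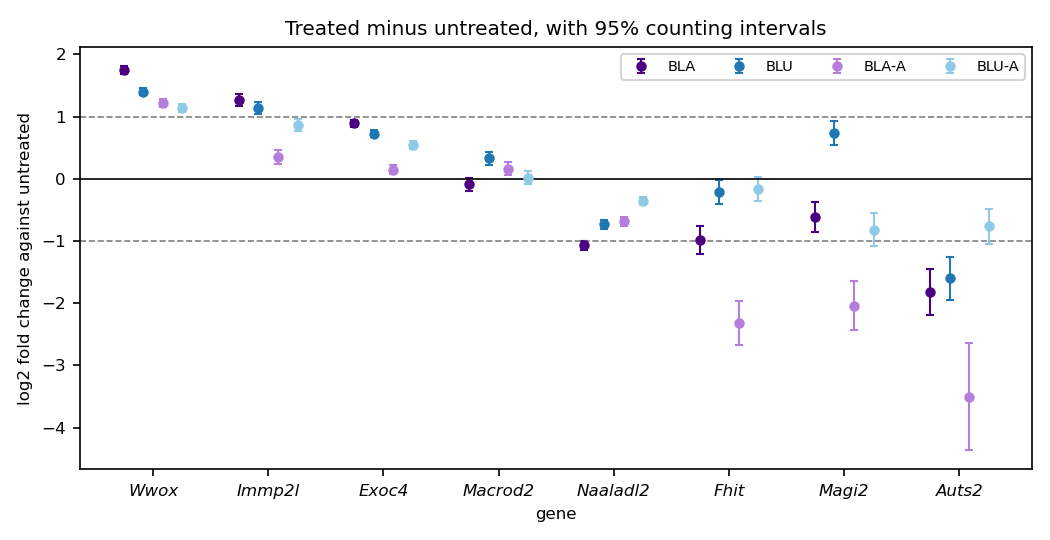
Log2 fold change of each treatment against untreated cells on CPM plus 0.5, with bars for the 95% counting interval and dashed lines at the threshold of 1 in either direction. Only Wwox lies above 1 in all 4 treatments, and the spread between genes is widest with BLA-A, where Wwox is at 1.22 and Auts2 at -3.50.

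Counted over the 8 genes, 2 were past 1 upward and 2 downward with BLA, where 7.91% of all tested genes were past 1 upward and 8.5% downward. In BLU, 2 were upward and 1 downward (5.64% and 4.61% of all genes). In BLA-A, 1 was upward and 3 downward (8.55% and 12.3%). In BLU-A, Wwox was upward and none was downward (3.39% and 4.48%). The upward counts include Wwox, which the choice of the genes fixed. Without it, the other 7 gave 1 upward with BLA and with BLU (Immp2l both times) and 0 with BLA-A and BLU-A. The median log2 fold change of the other 7 was -0.62 with BLA, 0.33 with BLU, -0.68 with BLA-A and -0.16 with BLU-A, beside medians of all tested genes between -0.01 and 0.00.

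The 4 treated libraries were also set against the untreated one in edgeR (quasi-likelihood test, p-values adjusted over all genes by Benjamini-Hochberg). None of the 7 other genes was called, as against 4 genes in all (0.0227% of those tested), and each had an adjusted p of 0.9996. Immp2l had a log2 fold change of 0.95 ± 0.39 (SE) and Naaladl2 one of -0.69 ± 0.29, with unadjusted p-values of 0.0413 and 0.0481 in this test, which 2.72% of all genes passed at 0.05. Exoc4 had 0.61 ± 0.33 (unadjusted p = 0.102) and Auts2 -1.78 ± 0.93 (unadjusted p = 0.0934) in the same edgeR test. Fhit, Macrod2 and Magi2 had unadjusted p-values of 0.351, 0.682 and 0.689. The spread in this test is that between 4 different treatments, since untreated cells have 1 library, so a p that misses the threshold does not show that these 7 genes did not change or did not move with Wwox. BLA-A contributed much of it: without that library 42 genes were called over the whole table, and the smallest adjusted p of the 7 was 0.0641, for Immp2l, in the edgeR test. DESeq2's Wald test called 19 genes over the whole table and none of the 7.

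The treatments were compared with each other in the same way, at 1 library each. Between BLA-A and BLA, Fhit, Auts2 and Magi2 were past 1 downward, with log2 differences of -1.34, -1.68 and -1.43, where 13.0% of all genes were past 1 downward and 11.6% upward. Wwox, Immp2l and Exoc4 were lower with BLA-A than with BLA by smaller amounts (-0.53, -0.92 and -0.75), and Naaladl2 and Macrod2 were higher (0.39 and 0.25). Between BLU-A and BLU, Magi2 alone was past 1, at -1.55, where 3.79% of genes were past 1 downward and 2.89% upward. Wwox differed by -0.26, Immp2l by -0.27, Exoc4 by -0.18 and Macrod2 by -0.31, while Naaladl2 was higher with BLU-A by 0.38 and Auts2 by 0.84. Fhit differed by 0.05, with a counting interval from -0.15 to 0.24.

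Between the berries, BLA differed from BLU past 1 at Magi2 (-1.35), where 6.25% of genes were past 1 downward and 4.25% upward. BLA-A differed from BLU-A past 1 at Auts2 (-2.74), Fhit (-2.16) and Magi2 (-1.23), where 10.4% of genes were past 1 downward and 8.72% upward. Wwox was 0.35 higher with BLA than with BLU and 0.08 higher with BLA-A than with BLU-A, with a counting interval of 0.03 to 0.13 for the latter. Naaladl2 was lower with blackberry in both forms, by -0.34 as the extract and by -0.33 as the nanoparticle.

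Levels can be compared between genes only per length. Per 100 kb of span, Exoc4 was the highest in untreated cells, at 17.7 CPM, followed by Naaladl2 (12.2), Wwox (11.7), Immp2l (5.04) and Macrod2 (2.73). Fhit (1.09), Auts2 (0.968) and Magi2 (0.843) came last. Naaladl2 and Wwox did not differ beyond counting error, nor did neighbours in the order of the last 3. Wwox took the first place in all 4 treated libraries, at 39.6, 31.1, 27.5 and 25.96 CPM per 100 kb with BLA, BLU, BLA-A and BLU-A, although with BLU-A Exoc4 was level with it at 25.94. Naaladl2, above Immp2l in untreated cells, was below it with BLA (5.78 against 12.2) and with BLU (7.32 against 11.1).

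The lowest 3 genes lay near a level that was also read over receptor genes of the olfactory and vomeronasal system, whose known role is in sensory neurons. Summed over 1451 of these genes, the level per 100 kb was 0.784 CPM without treatment, 0.486 with BLA, 0.614 with BLU, 0.327 with BLA-A and 0.505 with BLU-A, and between 1223 and 1385 of them were at 0 counts in each library. The order of the libraries, with untreated highest and BLA-A lowest, was also that of the median per-length level of the 233 genes of 500 kb and over, which was 1.03, 0.499, 0.727, 0.174 and 0.578. Fhit, at 1.09, 0.535, 0.935, 0.193 and 0.966 CPM per 100 kb, was within a factor of 2 of both references in each library. Magi2, at 0.843, 0.538, 1.42, 0.179 and 0.464 CPM per 100 kb, lay near them in 4 libraries, but with BLU it was above its untreated level where both references were below theirs. Auts2 was below both references with BLA (0.241), BLU (0.289) and BLA-A (0.0442). The part of such a general low level in the changes of Fhit, Magi2 and Auts2 was not tested. Wwox, Exoc4, Immp2l, Macrod2 and Naaladl2 were above both references in every library. The receptor genes were chosen as a reference after the data were seen.

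**Figure D3:**
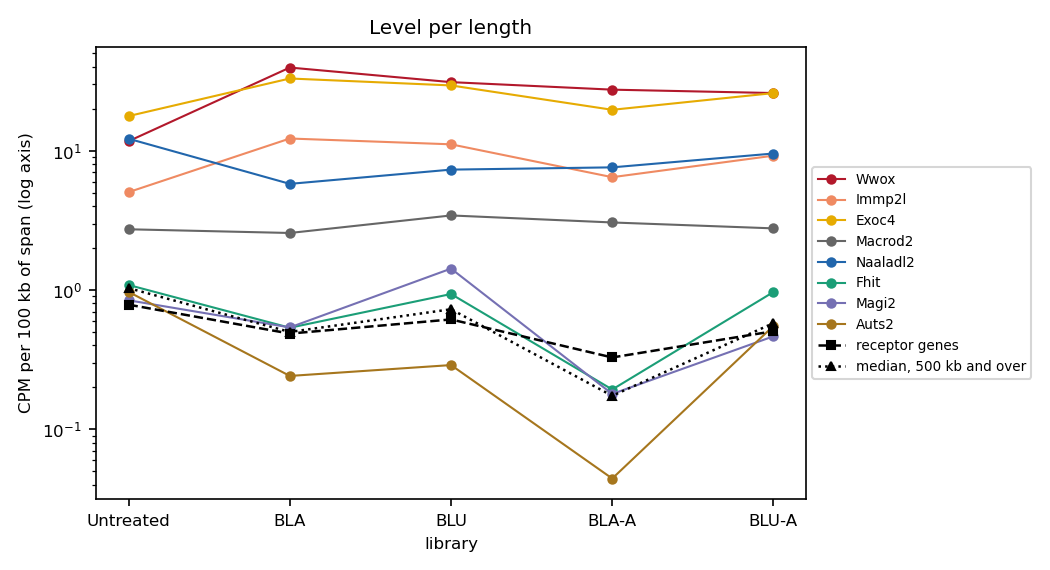
CPM per 100 kb of gene span (log axis) of the 8 genes in the 5 libraries, with the summed level of 1451 olfactory and vomeronasal receptor genes (squares, dashed) and the median of 233 genes of 500 kb and over (triangles, dotted). Fhit and, except with BLU (1.42), Magi2 lie near the 2 reference lines, which go from 0.784 and 1.03 in untreated cells to 0.327 and 0.174 with BLA-A, while Wwox goes from 11.7 to between 25.96 and 39.6.

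Very long genes as a class did not lie with Wwox. The 57 tested genes over 1 Mb, 5 of the 8 genes among them, had median log2 fold changes of -0.97 with BLA, -0.45 with BLU, -2.21 with BLA-A and -0.76 with BLU-A. The 171 genes between 500 kb and 1 Mb, with Wwox, Immp2l and Exoc4 among them, had medians of -0.52, -0.23, -1.69 and -0.38. Genes of 10 to 100 kb had medians within 0.03 of 0 in all 4 treatments. These long classes hold many genes at a low level: the median level was 4.87 CPM between 500 kb and 1 Mb and 7.17 CPM over 1 Mb. Kept to genes with at least 10 CPM in every library, the median of the 55 genes between 500 kb and 1 Mb was 0.89 with BLA, 0.73 with BLU, 0.34 with BLA-A and 0.50 with BLU-A. The medians of the 11 genes over 1 Mb were then -0.21, -0.32, 0.089 and -0.19. Under the same filter, the 141 genes of 300 to 500 kb had medians of 0.85, 0.77, 0.27 and 0.48, near those between 500 kb and 1 Mb. The 1139 genes of 100 to 300 kb had 0.40, 0.37, 0.16 and 0.21.

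**Figure D4:**
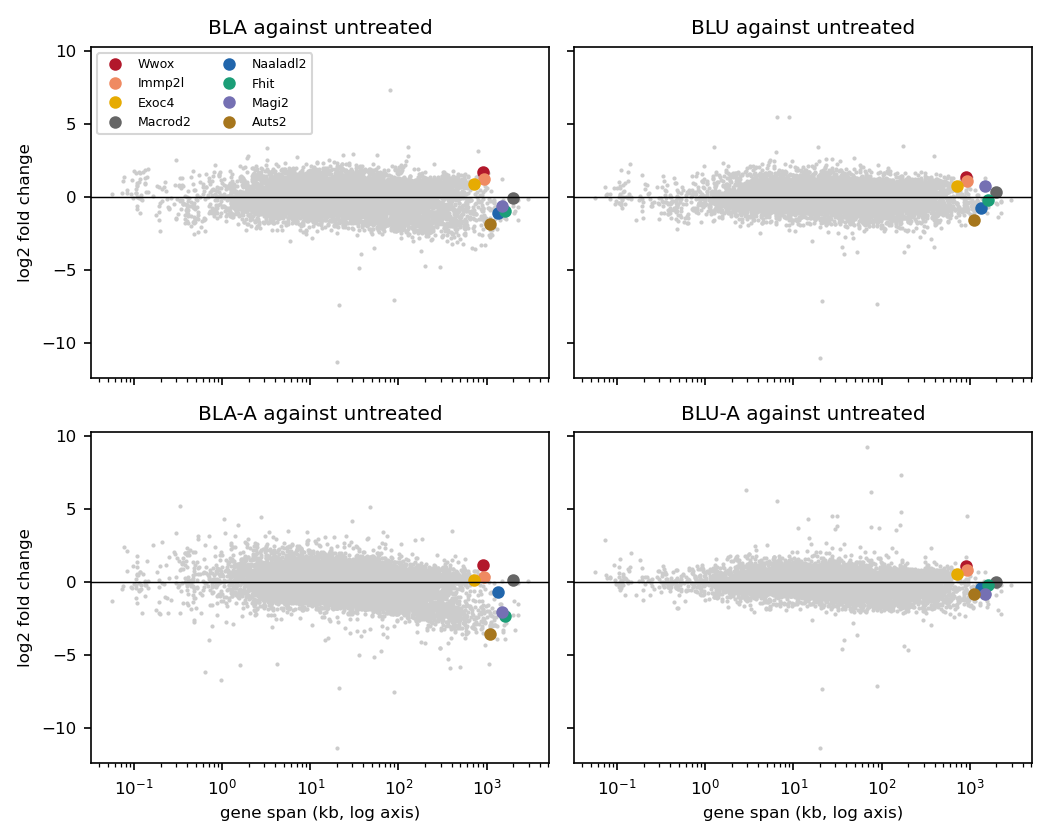
Log2 fold change against untreated cells by gene span (kb, log axis), 1 panel per treatment, with all 16308 tested genes that have a span in grey and the 8 genes in colour. Among the longest genes the points spread in both directions, and with BLA-A most lie below 0, where the median over 1 Mb was -2.21.

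Very long genes were also split by level, after the data were seen. Among the 228 tested genes of 500 kb and over, 51 had a mean of 50 CPM and over across the 5 libraries. Their median log2 fold change was 0.97 with BLA, 0.84 with BLU, 0.35 with BLA-A and 0.57 with BLU-A, and 45, 45, 43 and 43 of the 51 lay above 0. Wwox, Immp2l, Exoc4, Macrod2 and Naaladl2 belong to these 51. Among the 135 genes of 1 to 10 CPM, where Auts2 belongs, the medians were -1.23, -0.62, -2.36 and -0.89. Of these genes, 108 lay below untreated cells in all 4 treatments, beside 19.3% of all tested genes. The 36 genes of 10 to 50 CPM, with Fhit and Magi2, had medians between these (-0.33, -0.09, -1.05 and -0.19). The mean includes the treated libraries, so a gene's change helped to set its class: 6 of the 51, Immp2l among them, were under 50 CPM without treatment, and 2 genes over it there were not in the class. With classes set by the untreated level alone, which itself enters each fold change, the medians were 0.91, 0.76, 0.34 and 0.55 for the 47 genes of 50 CPM and over and -1.33, -0.61, -2.32 and -0.88 for the 120 of 1 to 10 CPM.

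By log2 fold change among those 51 genes, counted from the highest, Immp2l ranked 10, 11, 26 and 8 with BLA, BLU, BLA-A and BLU-A. Exoc4 ranked 30, 30, 37 and 28 and Macrod2 46, 40, 35 and 43, so that Macrod2 was below Exoc4 except with BLA-A. Naaladl2 was last or next to last (rank 51, 51, 50 and 50). These ranks are a description, since the class was set partly by the treated libraries. Beside 19.4% and 19.3% of all tested genes, 38 of the 51 were above untreated cells in all 4 treatments and 3 below in all 4. Among the latter were Naaladl2 and Cntnap2, a gene for a neuronal adhesion protein, which differed by at most -0.32.

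**Figure D5:**
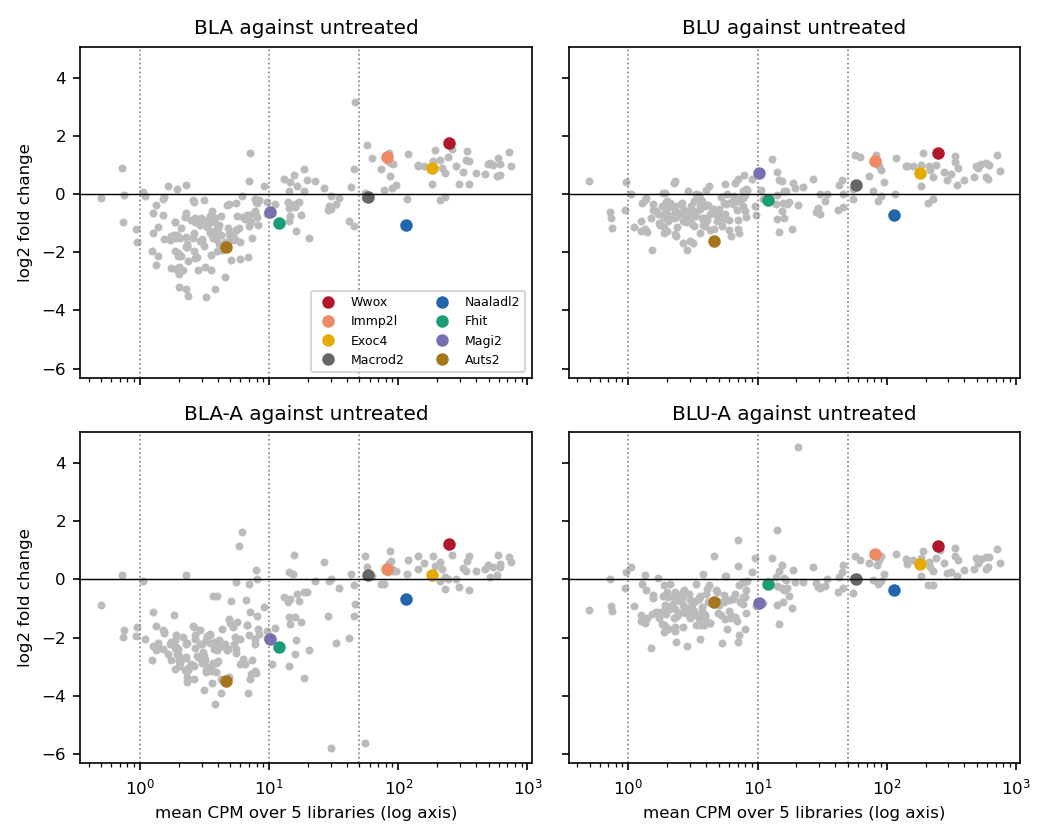
Log2 fold change against untreated cells of the 228 tested genes of 500 kb and over by their mean CPM (log axis), 1 panel per treatment, with dotted lines at 1, 10 and 50 CPM. To the right of 50 CPM most points lie above 0 (45 of 51 with BLA), with Naaladl2 below 0 in each panel, and to the left of 10 CPM most lie below it.

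Genes over 1 Mb with at least 10 CPM in every library were 11, Macrod2 and Naaladl2 included. Lrmda and Pde4d, the latter a cAMP phosphodiesterase, were above untreated cells in all 4 treatments, and Lrmda had the same order of libraries as Immp2l (1.68, 1.35, 0.41 and 0.81 with BLA, BLU, BLA-A and BLU-A). Pde4d had log2 fold changes of 1.23, 1.29, 0.10 and 0.68. Zfhx3, a transcription factor gene on chromosome 8 like Wwox, was also above untreated cells in all 4 (0.64, 0.53, 0.51 and 0.41). Lrp1b, a fragile site gene for a lipoprotein receptor relative, was below in all 4 (-1.11, -0.45, -1.24 and -0.31), as were Anks1b, Cntnap2 and Prkg1.

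A list of 22 other very long genes at or near fragile sites was also read. With BLA, 4 were past 1 upward and 10 downward, beside 7.91% and 8.5% of all tested genes. With BLU they were 3 and 1 (5.64% and 4.61% of all), with BLA-A 0 and 15 (8.55% and 12.3%), and with BLU-A 0 and 3 (3.39% and 4.48%). The list's median log2 fold changes were -0.73, -0.33, -1.81 and -0.46. Beside 19.4% of all tested genes, 5 of the 22 were above untreated cells in all 4 treatments. They included Rad51b, a gene of homologous recombination (1.52, 1.41, 0.45 and 0.99), Lsamp, Pde4d and Nbea. Wwox's BLA-A value of 1.22 was above that of each of these 22 genes, the highest of which was 0.64. Wwox was chosen for its rise, so this is a description. Below untreated cells in all 4 treatments was, among others, Dmd, the dystrophin gene (-0.71, -0.27, -1.47 and -0.57).

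A list of 32 genes that keep fragile sites intact under replication stress was read in the same way, and 31 of them passed the filter on low counts. None was past 1 with BLA, BLU or BLU-A, where 7.91%, 5.64% and 3.39% of all tested genes were past 1 upward and 8.5%, 4.61% and 4.48% downward. The list's medians there were -0.10, -0.09 and -0.08. In BLA-A, Smarcal1, an annealing helicase of stalled forks, was past 1 upward at 1.42. Top1 and Top2a, the topoisomerases, were past 1 downward at -1.03 and -1.23. Of all tested genes, 8.55% were past 1 upward and 12.3% downward with BLA-A, and the list median there was -0.33. Atr, the kinase that answers stalled forks, was at -0.06, -0.10, -0.79 and -0.09, and Fancd2, which marks fragile sites in mitosis, at -0.18, -0.09, -0.58 and -0.22.

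Of 9 genes for proteins known to bind Wwox, 7 passed the filter. Erbb4, itself a gene of 1076 kb, was at 4.74 CPM without treatment and past 1 downward with BLA and BLA-A, at -2.60 and -1.99. Runx2, an osteoblast transcription factor, was above untreated cells in all 4 treatments (0.87, 0.82, 0.59 and 0.60). Itch and Gsk3b were also above in all 4, as were 19.4% of all tested genes, and Jun and Hif1a lay between -0.28 and 0.59. Among 17 relatives and complex partners of the other genes, 16 passed the filter. Magi1, the paralogue of Magi2 and a gene of 608 kb, was at 356 CPM without treatment and at 982, 896, 607 and 736 CPM, past 1 with BLA, BLU and BLU-A, whereas Magi2 was below untreated cells in 3 of the 4. Of the other exocyst subunits measured, Exoc6b, the longest at 455 kb, was nearest to Exoc4, with 0.86, 0.73, -0.06 and 0.53. Exoc8, the shortest at 4.60 kb, was at -0.16, -0.23, 0.15 and 0.07.

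The genes next to the 8 gave a mixed picture. Dock4, 177 kb from Immp2l and on the same strand, went from 101 CPM without treatment to 206, 181, 93.5 and 169 CPM, with log2 fold changes of 1.03, 0.84, -0.11 and 0.74. Lrrn3, which lies inside Immp2l on the opposite strand, was at 1.66 CPM without treatment and between 1.93 and 4.11 CPM in treated cells. Chchd3, next to Exoc4, was at 0.59, 0.52, 0.25 and 0.29. Nlgn1, 282 kb from Naaladl2 on the same strand, was below untreated cells with it, at -0.93, -0.56, -2.03 and -0.45. Flrt3, inside Macrod2 on the opposite strand, stayed within 0.06 of 0 with BLA, BLU and BLU-A and was at 0.68 with BLA-A. Beside Wwox, Maf was between 0.377 and 1.04 CPM and Clec3a at 4.67 counts or fewer in all 5 libraries. Gm16116, a noncoding gene antisense to Wwox, was at 5.34 CPM without treatment and between 6.69 and 9.56 CPM in treated cells. Gm16118, another, was at 2.96 CPM without treatment and at 4.32 (BLA), 2.90 (BLU), 3.19 (BLA-A) and 1.07 CPM (BLU-A), and Gm16117 was at 1.44 CPM or less in all 5. Reads were counted by strand, and each of the genes that overlap Wwox in the count table lies on its opposite strand.

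The 5 genes whose profile over the 5 libraries lay nearest to that of Wwox were predicted genes, named Gm33934, Gm30106, Gm51671, Gm53812 and Gm52303. Nearness was the Euclidean distance between centred log2 CPM among 8623 genes with at least 10 CPM in every library, and these 5 were at 0.13 to 0.22. Gm33934, a gene of 19.6 kb on chromosome 6, went from 10.3 CPM without treatment to 38.0, 27.1, 23.6 and 24.1 CPM. Gm51671, the highest of them, went from 74.2 to 263, 224, 167 and 183 CPM. By the same distance Immp2l was at 0.65, with 147 genes nearer to Wwox (1.70%), and Exoc4 at 0.81, with 372 nearer (4.31%). Macrod2 had 3143 nearer (36.4%) and Naaladl2 8355 (96.9%), while Auts2, Fhit and Magi2, which did not reach 10 CPM everywhere, were farther than 99.5% of these genes.

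The libraries held between 25613711 and 26956308 counts each as means of their columns, so that 3 counts were 0.111 to 0.117 CPM. Scaling by total counts instead of TMM shifted the median of all tested genes by -0.19 with BLA-A and by at most -0.03 in the other treatments. Of 8 epithelial markers, Krt5 was at 0 counts and Krt14 at 0.834 CPM or less in all libraries, and the list summed to between 956 and 1723 CPM. Krt8, Krt18 and Krt7 were below their untreated level with BLA, BLU and BLU-A and above it with BLA-A. Krt8 was at 275, 175, 196, 434 and 212 CPM from untreated to BLU-A. Other markers of the list did not share this pattern. Epcam was below untreated cells in all 4 treatments (-0.46, -0.38, -0.79 and -0.13), and Cdh1 above them in all 4 (0.006, 0.13, 0.91 and 0.02). Krt19 had log2 fold changes of 0.62, -0.01, 1.93 and -0.44. The part of these differences in the results was not tested. Leukocyte markers summed to between 0.791 and 3.81 CPM and endothelial markers to between 1.75 and 4.06 CPM. Among 3 fibroblast markers Pdgfra was read at 86.0 to 102 CPM, and Col1a1 and Pdgfrb at 1.80 CPM or less.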

How the data were processed

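RNA was measured in 4T1 cells by ribosomal RNA-depleted bulk sequencing under 5 conditions. The authors aligned reads to GRCm39 with STAR and deposited raw counts per gene, made in OmicsBox over features of type gene by strand. The labelled columns of a condition, 3 each, were taken as subsets of 1 library. Their chi-square per degree of freedom was 0.0951 to 0.475, under the limit of 1.5, and their mean was used as 1 library. The numbers 1 to 3 in the labels were taken to mark subsets and to pair nothing.

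A gene was tested if it reached 1 CPM in any library. edgeR 4.0.16 gave TMM-scaled CPM, to which 0.5 was added before log2 ratios to the untreated library were formed. A ratio over 1 in size was counted. The 4 treated libraries were tested against the untreated one with edgeR's quasi-likelihood test, Benjamini-Hochberg adjusted at 0.05. The standard error is the log2 fold change divided by the root of F. DESeq2 1.42.0 was an alternative. Counting intervals are 95% Poisson intervals. Columns are not independent draws, so intervals cover counting error only. The scripts ran in R 4.3.3 and in Python 3.11.15 with pandas 2.3.3 and numpy 2.4.6.

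Spans came from GENCODE release M39 on GRCm39 by symbol, for 92.7% of the tested genes. Spans of the 8 genes differed by at most 0.498% from RefSeq's on GRCm38.p6. The genes named are the 8, those of the lists, overlapping and neighbouring genes, the 5 nearest to Wwox, and genes over 1 Mb with 10 CPM in every library. Some genes of these groups are not reported here. The 8 genes and the lists were chosen with earlier results of these data known.

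The quasi-likelihood test was checked on simulated data. With a coefficient of variation between libraries of 0.45, near the 0.451 estimated here, it called 19% of simulated 4-fold changes and 91% of 16-fold ones. With a coefficient of 0.2 it called 100% of both. The alternatives covered scaling, filter, pseudocount, columns and test. Further deposited tables, of the authors' own comparisons (log2 fold changes and p-values, and scores of gene sets), were not used.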

Additional observations from a re-analysis of the deposited data

Results flagged for a closer look

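Of the 8 genes, 4 differed between the treatments in opposite directions, each beyond its counting interval, and with 1 library per condition none of these differences was tested. Against the extract of the same berry, the nanoparticle library had less Auts2 with blackberry (log2 difference -1.68) and more with blueberry (0.84). Auts2 with BLA-A rests on 11.3 counts. Macrod2 was 0.25 higher in the blackberry nanoparticle library than in its extract and differed by -0.31 between the blueberry pair.

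Between the berries, Immp2l was 0.14 higher with BLA than with BLU and differed by -0.51 between BLA-A and BLU-A. Exoc4 did the same, with 0.17 for the extracts and -0.40 for the nanoparticles. Macrod2 went the other way, with -0.41 for the extracts and 0.14 for the nanoparticles.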

How the results depend on the processing

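Of 288 values of the 8 genes recomputed under 9 alternatives, 3 changed sign (Macrod2 and Exoc4 with BLA-A with scaling by total counts, Macrod2 with BLU-A with DESeq2 size factors) and 4 crossed the threshold of 1 (Fhit with BLA, from -0.98 to between -1.01 and -1.001). Leaving out 1 column of each condition in turn moved no value of the 8 genes by more than 0.07.

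The medians of very long genes depended on the filter. With at least 10 CPM in every library they became 0.89 (BLA), 0.73 (BLU), 0.34 (BLA-A) and 0.50 (BLU-A) between 500 kb and 1 Mb, and -0.21 (BLA), 0.089 (BLA-A) and -0.19 (BLU-A) over 1 Mb. That filter leaves out genes that fell to low levels. In the split by mean level, added after the data were seen, the medians, given for BLA, then BLU, BLA-A and BLU-A, were -1.23, -0.62, -2.36 and -0.89 at 1 to 10 CPM and 0.97, 0.84, 0.35 and 0.57 at 50 CPM and over. At 10 to 50 CPM they were -0.33, -1.05 and -0.19 with BLA, BLA-A and BLU-A. That mean includes the treated libraries, so changes helped to set the classes. Split by the untreated level instead, also added after the data were seen, they were -1.33, -0.61, -2.32 and -0.88 at 1 to 10 CPM, 0.91, 0.76, 0.34 and 0.55 at 50 CPM and over, and -0.43 (BLA) and -1.55 (BLA-A) at 10 to 50 CPM.

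DESeq2's Wald test called none of the 7 other genes. Nor did the quasi-likelihood test under scaling by total counts, with no filter, or without any 1 treated library or column. With the 15 columns as separate samples and no replicate block it called 4 of the 7 (Auts2, Exoc4, Immp2l and Naaladl2), and with the replicate block 3 (without Auts2). Entering subsets of 1 library as samples understates the spread. The deviations of same-numbered columns had a mean correlation of -0.00111 over 30 pairs, none over 0.1.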
